A study of Caenorhabditis elegans with 2 samples.

Results

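The genes described here are 6 genes connected with RNA processing in Caenorhabditis elegans (tos-1, fust-1, tent-5, ints-4, ntl-11 and cmtr-1) and Y73F8A.27, the neighbour of ntl-11, out of 19973 nuclear protein-coding genes. They were chosen from the peak signals of these same data, so their signals are given as a description and without a test. A peak was assigned to a gene when its summit lay in the gene or up to 2000 bp upstream. By that rule the 7 genes held 8 of the 256 nuclear peaks of the optimal list. All 7 held at least 1, as the choice fixes, against 1.45% of all protein-coding genes.

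Peaks came from chromatin immunoprecipitation and sequencing of EOR-1 in whole L3 larvae, in 1 group of 2 biological replicates with no second condition. The animals, of strain OP81 and listed as pooled males and females, carried the eGFP-eor-1 insertion wgIs81 and the unc-119(ed3) mutation on chromosome III. Both replicates share the transgene and the mutation, and whole animals mix all tissues, so no peak can be placed in a cell type. Read depth is not known, and signal is a value of the deposited lists with no stated unit. It orders regions within a list, and pooled and replicate values are set side by side without a mean.

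EOR-1, a DNA-binding protein with zinc fingers, is known from worm genetics to function in the Ras and Wnt pathways. Apart from tos-1, whose transcript is a target of splicing, the RNA processing genes belong to families that act on RNA from its start to its decay. Capping enzymes modify the first nucleotides, splicing factors join exons, the Integrator complex cleaves small nuclear RNAs and other nascent transcripts, poly(A) polymerases extend the tail, and the CCR4-NOT complex shortens it.

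The sequences under 5 of the 8 summits are shown. Those of ntl-11, Y73F8A.27 and fust-1 hold the EOR-1 word, those of ntl-11 and Y73F8A.27 are copies of 1 block, that of cmtr-1 has a copy elsewhere, and that of tos-1 lies under the peak of highest signal and holds neither the word nor a copy. Each runs for 101 bases on the + strand of WBcel235 (ce11), from 50 bp before to 50 bp after the pooled summit, and was read from the RefSeq copy of that assembly. They lie at chrV:9344283-9344383 (tos-1), chrIV:15471560-15471660 (ntl-11), chrIV:15472541-15472641 (Y73F8A.27), chrII:7152114-7152214 (fust-1) and chrII:15025852-15025952 (cmtr-1). Capitals mark words found by a search of both strands. The EOR-1 word was written as GAGACGCAG or, shifted by 1 base, as AGACGCAGA, and its core as AGACGC. The repeat GAGAG, which can overlap the EOR-1 word, was searched too, as were the TATA box word TATAAA, the E-box word CACGTG and a pair of heat shock words given with tent-5.
tos-1: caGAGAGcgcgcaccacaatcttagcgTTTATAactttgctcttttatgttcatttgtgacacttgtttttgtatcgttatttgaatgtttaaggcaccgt
ntl-11: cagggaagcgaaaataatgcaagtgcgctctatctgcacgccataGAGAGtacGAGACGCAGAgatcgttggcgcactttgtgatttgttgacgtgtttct
Y73F8A.27: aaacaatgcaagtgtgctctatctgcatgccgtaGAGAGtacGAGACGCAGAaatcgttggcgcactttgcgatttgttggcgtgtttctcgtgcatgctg
fust-1: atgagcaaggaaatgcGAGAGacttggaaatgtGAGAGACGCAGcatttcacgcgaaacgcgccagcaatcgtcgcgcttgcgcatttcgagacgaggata
cmtr-1: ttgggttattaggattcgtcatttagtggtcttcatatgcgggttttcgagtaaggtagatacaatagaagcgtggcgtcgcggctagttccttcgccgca

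The label of strong peaks fits 6 of the 7 genes. The tos-1 peak was the first of the 256 nuclear peaks, those at ntl-11, fust-1, ints-4, the second tent-5 start and Y73F8A.27 ranked 30, 34, 48, 50 and 68, and the cmtr-1 peak ranked 215. A weaker peak in tent-5 ranked 254. The lowest nuclear signal of the optimal list was 52.7, so tent-5 at 52.8 and cmtr-1 at 55.5 lay just inside its edge. The next tent-5 region, at 49.9 and rank 317, was just outside.

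**Figure D1:**
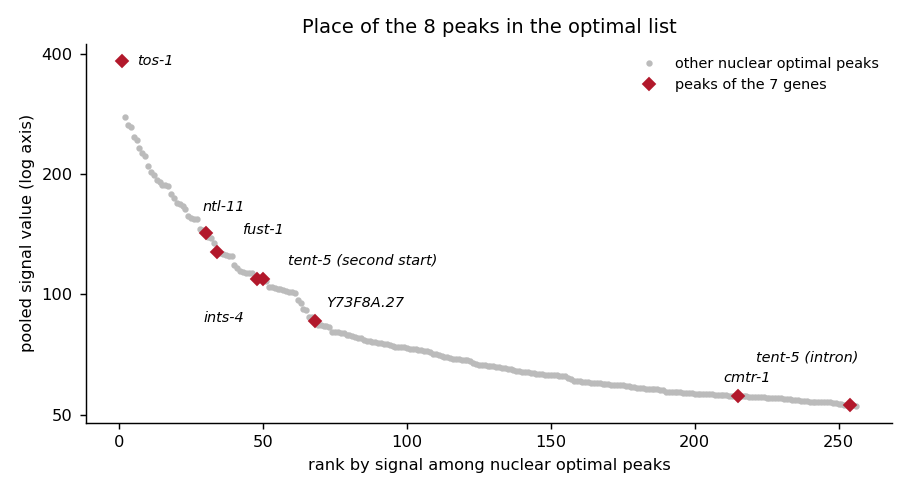
Pooled signal (log axis) of each of the 256 nuclear optimal peaks by rank, with the 8 peaks of the 7 genes as red diamonds. The tos-1 peak stands first at 384, 5 peaks lie at ranks 30 to 68, and cmtr-1 (rank 215) and the intron peak of tent-5 (rank 254) lie on the flat end.

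The peaks next in rank gave a scale for these signals, each called here by the gene with the closest transcript start. After tos-1 at 384 came the proteasome subunit gene rpn-3, at 279, and the Hsc70 chaperone gene hsp-1, at 266, so the step below tos-1 was larger than the next. The ntl-11 peak lay between those at gtr-1 (145.9), W06H8.6 (144.7), F54F12.1 (139.5) and F20B6.9 (139), and the fust-1 peak between ced-5 (135), which acts in the engulfment of dying cells, and icd-1 (127). The ints-4 and tent-5 peaks were separated by a single peak, nearest to the Mad-like gene mdl-1, with a signal of 109.4. The Y73F8A.27 peak followed those at the FGF gene egl-17 (88.0) and fbxl-4 (87.7) and preceded those at Y55F3AR.2 and lgg-2, both at 83.9. Around cmtr-1, 5 peaks in a row (mdl-1, unk-1, cmtr-1, unc-16 and unc-14) lay between 55.5 and 55.6, so its exact rank carries little.

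The splicing reporter gene tos-1 (WBGene00019466, V:9338859–9344203, - strand) is named as a target of splicing, and the isoforms of its transcript are used to read out the activity of splicing factors. Its peak, V:9344223–9344436, had a signal of 384 in the pooled list, 163 in replicate 1 and 219.9 in replicate 2. It was the first nuclear region of all 3 lists. The summit lay 130 bp upstream of the transcript start, at 9344333, and the summits of replicates 1 and 2 lay 1 and 3 bp from it.

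The tos-1 peak stood alone in its surroundings. Of 3 other pooled candidate regions within 5000 bp of it, the highest had a signal of 23.1, so the peak was 16.7 times as high. Among the nuclear optimal peaks with another candidate within that distance, none had a higher ratio to its surroundings, and the median ratio was 1.97. A few, such as the peak nearest to pot-3 (rank 40), had no other candidate there and so no ratio. The next optimal peaks were 408 kb to the left, nearest to unc-23, and 203 kb to the right, nearest to the histone gene his-37.

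At fust-1 (WBGene00016173, II:7152581–7155476, + strand), which encodes an RNA-binding protein, the peak II:7152016–7152311 had a signal of 127. It was 67.1 in replicate 1 and 54.6 in replicate 2, at ranks 34 and 50. Its summit, at 7152164, lay 417 bp upstream of the first fust-1 start and 289 bp past the end of T07F8.1, which runs in the same direction. This was the single candidate region in the fust-1 window in all 3 candidate lists, and it was 7.80 times as high as any other within 5000 bp. Of the nuclear optimal peaks with another candidate within that distance, only 7 stood higher above their surroundings.

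**Figure D2:**
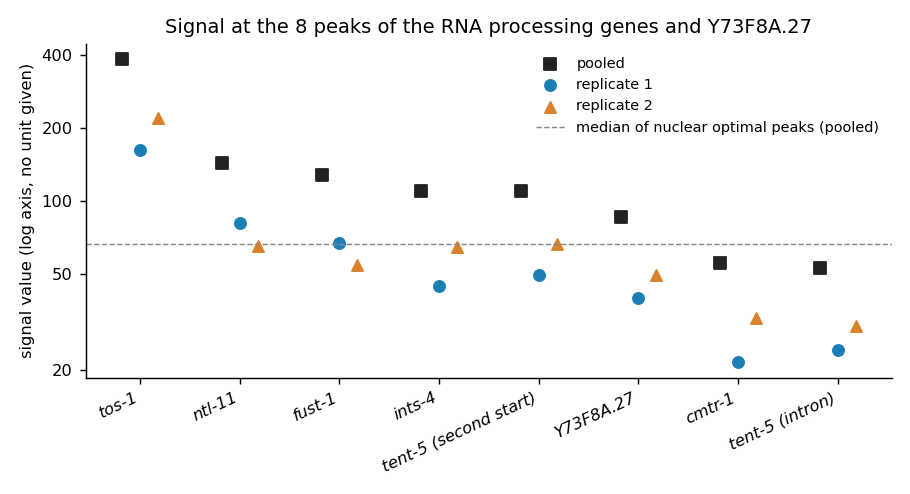
Signal (log axis, no unit given) at the 8 peaks in the pooled list (squares), replicate 1 (circles) and replicate 2 (triangles), with the median of nuclear optimal peaks, 66.2, as a dashed line. Replicate 1 lies above replicate 2 at ntl-11 and fust-1 and below it at the other 6 peaks.

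The cap methylation gene cmtr-1 (WBGene00013160, II:15026114–15037854, + strand) corresponds to human CMTR1, which methylates the first transcribed nucleotide of messenger RNAs. Its peak, II:15025754–15026049, had a pooled signal of 55.5, with 21.5 in replicate 1 and 32.8 in replicate 2. These were ranks 215, 1584 and 174, so replicate 1 on its own did not place the peak near the top of its list. In replicate 1 an intronic region 10548 bp into the gene was as high, at 22.1 and rank 1360.

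The cmtr-1 summit, at 15025902, lay in the 331 bp between Y53F4B.12 and cmtr-1, 120 bp past the end of the first and 212 bp upstream of the second. It was also 9 bp from the start of the small nucleolar RNA gene Y53F4B.47, which points away from cmtr-1 (II:15025814–15025893, - strand). Reads from a peak at the small nucleolar RNA gene and at the cmtr-1 promoter cannot be told apart at this distance.

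Both ntl-11 and Y73F8A.27 had a peak of their own, in 1 shared upstream stretch. The gene ntl-11 (WBGene00013530, IV:15455127–15471495, - strand) encodes the worm counterpart of the CCR4-NOT subunit CNOT11, and Y73F8A.27 (WBGene00013532, IV:15472809–15473572, + strand) starts 1313 bp away and points in the opposite direction. The peak on the ntl-11 side, IV:15471574–15471669, had signals of 143, 81.1 and 64.9 in the pooled list, replicate 1 and replicate 2, at ranks 30, 28 and 34. Its summit, 115 bp upstream of ntl-11, fell on the same base, 15471610, in all 3 lists.

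The peak on the Y73F8A.27 side, IV:15472443–15472738, had signals of 85.6, 39.7 and 49.5, at ranks 68, 103 and 59. Its summit, at 15472591, lay 218 bp upstream of Y73F8A.27 and 1096 bp upstream of ntl-11. Each peak therefore lay in the window of both genes but close to the start of 1. The summits were 981 bp apart, while the nearest optimal peak of a nuclear peak was at a median of 93.1 kb. Y73F8A.26 starts 87 bp past Y73F8A.27 on the same strand, so the second peak was also 1069 bp upstream of it.

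**Figure D3:**
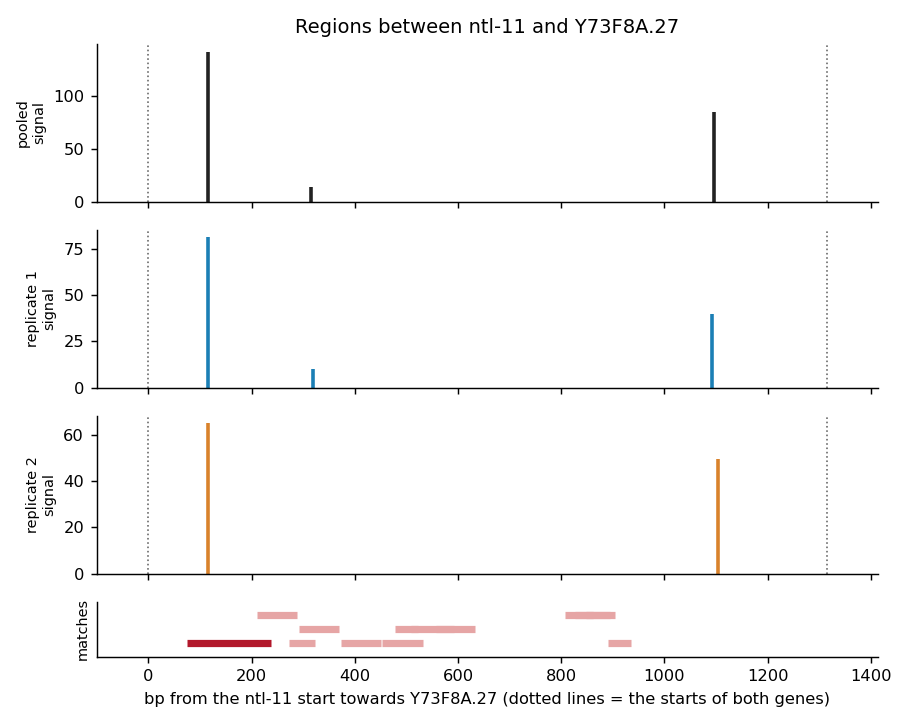
Signal of the pooled, replicate 1 and replicate 2 regions between the starts of ntl-11 (left dotted line) and Y73F8A.27 (right dotted line), against distance in bp from the ntl-11 start. The bottom row shows where the 301 bases around the Y73F8A.27 peak match other parts of the stretch. The match of 164 bp, in dark red, covers the ntl-11 peak, and 12 shorter matches (pale) lie between the peaks.

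The 2 summits lay on copies of the same sequence. When the 301 bases around each nuclear optimal summit were searched against the genome with blastn, the block at the Y73F8A.27 peak matched the block at the ntl-11 peak over 164 aligned bases with 89.0% identity. Both copies held GAGAG followed by the EOR-1 word in both its forms, as the capitals in the printed sequences show. The word began 3 bp right of the ntl-11 summit and 8 bp left of the Y73F8A.27 summit. A further 12 shorter matches to the Y73F8A.27 block, of at most 89 aligned bases and 87.2% identity, lay in the same 1313 bp, and 14 elsewhere in the genome.

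Of the remaining copies in the stretch, those under the pooled region at IV:15471663–15471958 (signal 14.5, rank 25861) were the only ones with a further pooled candidate. Whether reads of the copies were assigned uniquely was not tested. The ntl-11 body held 9 other pooled candidates, all in introns and with signals of 13.1 to 19.1, below the pooled nuclear median of 19.4. The next optimal peaks outside the stretch were 704 kb to the left, nearest to mrps-7, and 250.5 kb to the right, nearest to Y105C5A.15.

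The Integrator subunit gene ints-4 (WBGene00012234, I:13663352–13674997, + strand) encodes a scaffold of the cleavage module of the complex, as known from human INTS4. Its peak, I:13663278–13663573, had a pooled signal of 109.6, with 44.6 in replicate 1 and 64.6 in replicate 2, at ranks 48, 78 and 36. The summit, at 13663426, lay 74 bp into the first exon, outside coding sequence. It was also 1094 bp upstream of W09C5.12, which runs on the - strand. In all 3 lists the summit was at the same base or 1 bp away. The other peaks near it included one nearest to sac-2, 9.47 kb to the left, with a signal of 104.4, and one nearest to scpr-1, 93.1 kb to the right, with 126.

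The ints-4 peak had a copy in a neighbouring pseudogene. The stretch from 45 bp before to 66 bp after the summit matched I:13659532–13659643 over 112 bases with 84.8% identity, inside the pseudogene WBGene00012355. A pooled candidate there had a signal of 37.5 (rank 1142), the highest within 5000 bp of the ints-4 summit, with 24.5 in replicate 1 and 10.8 in replicate 2. The ints-4 peak was 2.92 times as high as that region in the pooled list.

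A similar copy was found for cmtr-1. The bases from 88 before to 36 after its summit, which include Y53F4B.47, matched III:5653867–5653993 over 127 bases with 89.8% identity, where the small nucleolar RNA gene C05H8.3 lies within ckk-1. No candidate region of any of the 3 lists overlapped that copy. Counting matches of at least 100 aligned bases and 80% identity, a limit set after these matches were seen, 4 of the 8 peaks (ntl-11, Y73F8A.27, ints-4 and cmtr-1) had a copy, against 23 of all 256 (8.98%). The ntl-11 and Y73F8A.27 blocks were each other's copy, so they are not independent cases. The tos-1, fust-1 and stronger tent-5 peaks had no other match at all.

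The poly(A) polymerase gene tent-5 (WBGene00004131, I:5372851–5384508, - strand), whose product lengthens the tails of messenger RNAs for secreted immune proteins in worm, had 2 optimal peaks inside the gene. The stronger, I:5379782–5380077, had signals of 109.3 in the pooled list, 49.4 in replicate 1 and 66.5 in replicate 2, at ranks 50, 65 and 32. Its summit, at 5379930, lay 4578 bp past the first start of the gene but 102 bp past the second of its 5 annotated transcript starts, in an exon of 1 transcript and outside coding sequence. The summits of replicates 1 and 2 were 53 and 27 bp from it, a larger shift than the medians of 5 and 7 bp over nuclear optimal peaks.

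The weaker tent-5 peak, I:5376893–5377188, had signals of 52.8, 24.3 and 30.4, at ranks 254, 824 and 214. Its summit, at 5377041, lay in an intron, 397 bp past the third start. In replicate 1 the overlapping region had its summit 175 bp away, at 5377216, closer to another pooled candidate with its summit at 5377242 (signal 28.0, rank 4725). The replicate 1 value of 24.3 may therefore belong to that region and not to this peak. The summits of the optimal peaks were 2.89 kb apart.

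Candidate regions ran along the whole of tent-5. The gene and its 2000 bp upstream, 13.7 kb in all, held 18 pooled candidate regions with a median signal of 33.8, against a pooled nuclear median of 19.4. Replicate 1 had 18 there and replicate 2 had 16. Only 36 of the 19973 protein-coding genes (0.180%), tent-5 included, held as many in the pooled list, and the share with an equal or higher number per kb was 0.541%. A total of 14 other pooled candidates lay within 5000 bp of the stronger summit, more than at any other nuclear optimal peak, where the median was 5.

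**Figure D4:**
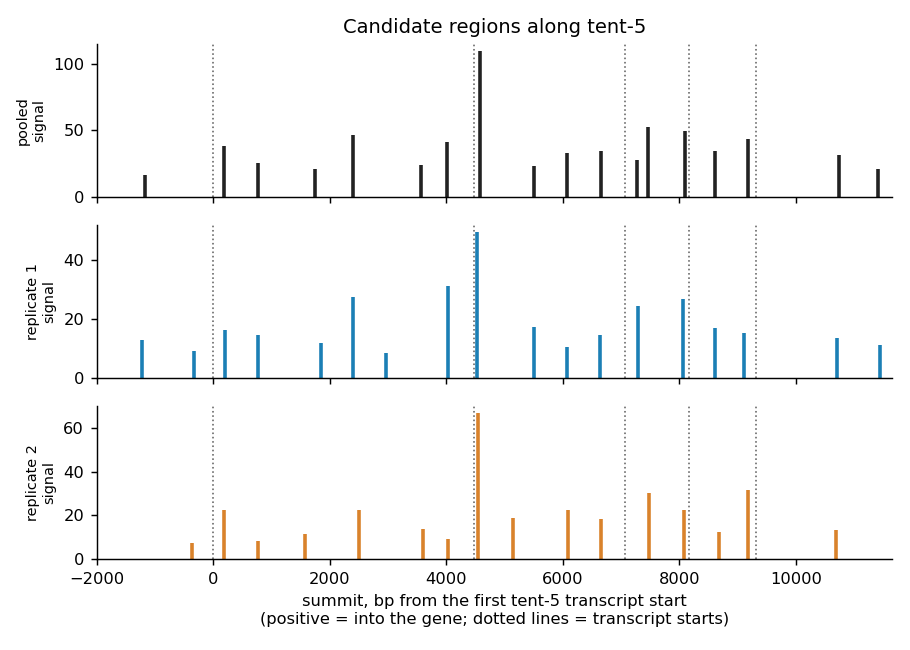
Signal of every candidate region in the tent-5 window in the pooled list, replicate 1 and replicate 2, against the distance of its summit from the first transcript start in bp, with the 5 starts as dotted lines. The highest region of each list stands beside the second start, and 16 to 18 regions run along the gene in each list.

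Several of the weaker tent-5 regions lay near starts too. In the pooled list one of 43.3 (rank 562) lay 139 bp upstream of the fifth start, and one of 49.9 (rank 317) 76 bp upstream of the fourth. Another, at rank 1050, lay 192 bp past the first. Others were farther away, such as one of 46.3 (rank 425) at 2078 bp from the closest start and one of 33.3 (rank 2075) at 1004 bp. Whether the regions lie nearer to the 5 starts than other placements would was not tested. Nearest protein-coding neighbours were far, with zhp-1 4864 bp from one end of the gene and C24A11.1 17248 bp from the other. The next optimal peaks outside the gene were 1205 kb and 712 kb away.

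Among the other long genes, ntl-11 held 12 pooled candidates, ints-4 10 and cmtr-1 9, in windows of 18.4, 13.6 and 13.7 kb. Per kb, 13.5%, 9.96% and 13.4% of all genes had as many or more. A pooled candidate of any height was found in the windows of 47.3% of all protein-coding genes.

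Of the 8 summits, 4 had the EOR-1 word within 50 bp. They were those at ntl-11, Y73F8A.27, fust-1 and the stronger tent-5 peak. It was within 50 bp of 30 of all 256 nuclear optimal summits (11.7%), of 0.380% of nuclear pooled candidates and in 1.12% of 101 bp windows centred 200 bp upstream of all protein-coding genes. At fust-1 it began 15 bp left of the summit and joined a GAGAG in 1 run. At tent-5 it lay on the - strand, 14 bp left of the summit. Since the ntl-11 and Y73F8A.27 words are copies of 1 block, the 4 peaks are not 4 independent cases. The genes were also chosen for high signal, while the shares are those of whole lists. Whether the share with the word changes with signal was not tested, and peaks of like rank were not compared. The same limit holds for the copies, the other words and the G and C content.

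The peaks at tos-1, ints-4, cmtr-1 and the intron of tent-5 lacked the word. The tos-1 region held the shorter AGACGC, which is contained in the EOR-1 word, 61 bp left of its summit, and CACGTG 79 bp left. GAGAG was within 50 bp of 5 of the 8 summits (tos-1 and the 4 with the EOR-1 word), against 32.8% of nuclear optimal peaks, 7.03% of nuclear candidates and 2995 of the 19973 promoter windows. The ints-4 region held 5 GAGAG, partly overlapping, 107 to 142 bp left of its summit. TATAAA was within 50 bp of 1 of the 8, tos-1, against 13.3%, 20.2% and 13.1% of the same sets, and CACGTG of none, against 3.91%, 0.657% and 1.53%.

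The stronger tent-5 peak also held 2 arrays of heat shock words, GAANNTTC or TTCNNGAA, the alternating blocks to which the heat shock factor HSF-1 is known to bind. Each array had 3 overlapping words with starts 5 bp apart. One began 61 bp left of the summit and the other 43 bp right of it, so they flanked the summit and the EOR-1 word. Such a run of 3, looked for after these were seen, lay within 100 bp of 4 of 256 nuclear optimal summits (1.56%), of 0.290% of nuclear candidates and in 0.120% of promoter windows of that length. The other 3 peaks were nearest to C01G10.7 (66.9), to the Hsp70 gene F44E5.4 (65.6) and to mnk-1 (59.2). Single heat shock words were within 50 bp of 1 of the 8 summits, against 12.1% of nuclear optimal peaks, 15.5% of candidates and 12.3% of promoter windows.

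The sequence under most of the 8 summits was richer in G and C than under most candidates. The 101 bp windows at ntl-11, fust-1, ints-4, the stronger tent-5 peak, Y73F8A.27 and cmtr-1 had 47.5% to 52.5% G or C, that at tos-1 37.6% and that in the tent-5 intron 19.8%. The medians were 40.6% for nuclear optimal peaks, 25.7% for nuclear candidates and 33.7% for promoter windows. The part of base composition in the signals was not tested.

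The replicates were compared with each other at each peak. The ratio of the replicate 1 to the replicate 2 signal ran from 0.656 at cmtr-1 to 1.25 at ntl-11, where the middle range of the 249 nuclear optimal peaks found in both lists was 0.808 to 1.32, with a median of 1.02. At cmtr-1, ints-4 (0.690), tos-1 (0.740), the stronger tent-5 peak (0.743), the weaker one (0.799) and Y73F8A.27 (0.803), the ratio was below that middle range. With 1 value per replicate and no depth, no error can be attached to a single ratio.

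**Figure D5:**
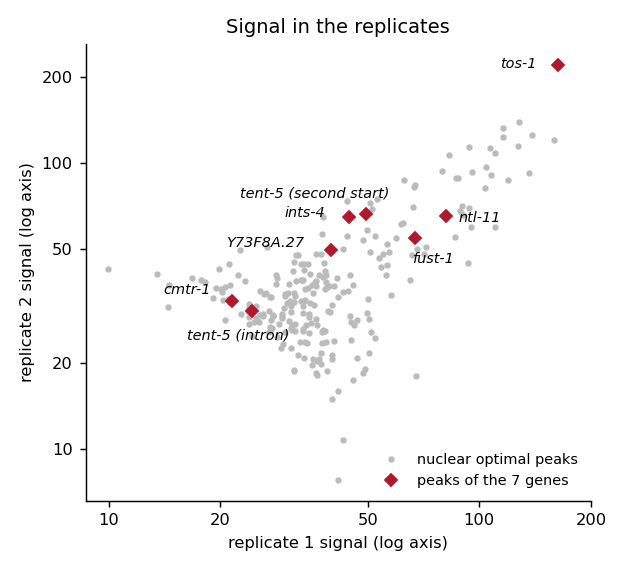
Signal in replicate 1 against replicate 2 (both log axes) for the nuclear optimal peaks found in both lists (grey), with the 8 peaks of the 7 genes as red diamonds. The tos-1 peak is the highest in both replicates, and cmtr-1 and the tent-5 intron peak lie among the lowest in replicate 1.

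Other genes of the same processes mostly lacked an optimal peak. In 7 lists of RNA processing genes, 169 genes were matched in the annotation, and 8 held an optimal summit, 6 of them genes described above, chosen for their peaks. Of the other 163, 2 held one (1.23%, against 1.45% of all protein-coding genes), and 73 held a pooled candidate (44.8%, against 47.3%). The first was tiar-2, which encodes a TIA-1 family RNA-binding protein, with a peak 186 bp upstream (78.5 pooled, 34.4 in replicate 1 and 44.3 in replicate 2). The other was mec-8, a splicing regulator gene, with a peak 1952 bp upstream (61.4 pooled and 42.6 in replicate 2). The replicate 1 region closest to that summit, 75 bp away, had a signal of 9.95 at rank 21694. By that pairing, the ratio of 0.234 to replicate 2 was the lowest of the nuclear optimal peaks found in both lists. Replicate 1 also had a stronger region upstream of mec-8, nearer to the gene, with a signal of 21.4 at rank 1651. The ratio of 0.234 therefore depends on pairing by closest summit and does not mean that replicate 1 lacked signal there.

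By list, 1 of 11 Integrator genes held an optimal peak (ints-4) and 1 of 13 CCR4-NOT and deadenylation genes (ntl-11). It was 1 of 14 genes on the poly(A) and poly(U) polymerase list (tent-5) and 1 of 20 cap genes (cmtr-1). In the list of splicing regulators it was 4 of 41 (tos-1, fust-1, tiar-2 and mec-8). That list held tos-1 although it is known as a target of splicing and not as a regulator. The list names are loose. Whether genes such as tra-2 and gld-1 there, or gld-3, gls-1 and rnp-8 on the polymerase list, fit them was not checked. None of 18 cleavage and polyadenylation genes and none of 52 spliceosome genes held an optimal peak. At these list sizes a share near the 1.45% of all genes amounts to less than 1 gene in each list.

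Within each complex the described gene stood well above the rest. Of the other 10 Integrator genes, 7 had a pooled candidate and the highest was ints-8, with 45.2 at rank 472, 6440 bp into the gene. Of the other 12 CCR4-NOT and deadenylation genes, 4 had one and the highest was the subunit gene ntl-3, with 33.1 at rank 2151, 15441 bp into the gene. The poly(A) polymerase gene pap-1 had 30.6, at rank 3100, and only 1 other gene of its list had any. These orders follow from how the genes were chosen and carry no test.

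Among cap genes cmtr-1 was the highest in the pooled list but in neither replicate. The highest of the others in the pooled list was the exonuclease gene xrn-2, with 35.3 at rank 1538. The highest xrn-2 region in replicate 2 lay elsewhere, upstream of the gene, with 39.7 at rank 99, above cmtr-1 at 32.8. In replicate 1 the highest xrn-2 region had 21.5 at rank 1591. There dcap-1 (30.8, rank 284), ife-2 and, by little, xrn-1 lay above the highest cmtr-1 region (22.1, rank 1360). The dcap-1 window also held a replicate 2 region (28.1, rank 309) at nearly the same place, but no pooled candidate. Of the spliceosome genes the highest in the pooled list was usp-39, with 51.0 at rank 287 (26.3 and 30.1 in replicates 1 and 2). This region lay 186 bp upstream and just outside the optimal list.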

How the data were processed

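Per the deposited README, the authors called candidate regions, background included, against a control for either replicate and for the 2 pooled, and took the optimal list from these by the irreproducible discovery rate. The ce11 lists were used, not the ce10 ones. Each region has a signal and a q value given as −log10, both as deposited by the authors and without a stated scale for the signal. Of aligner, caller, versions and thresholds, none is named in the labels or headers used here. Per the labels, fragments were 150 to 350 bp. Each candidate list held 30000 regions, so its length says nothing of depth.

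Ranks are by signal among nuclear regions. A replicate's region was paired with an optimal peak when they overlapped by 1 bp or more, taking the closest summit. Genes came from Ensembl release 115 (WBcel235, which is ce11). The tools were blastn 2.17.0, Python 3.11.15, matplotlib 3.10.9, pandas 2.3.3 and numpy 2.4.6, with blastn run without low-complexity masking. Window and word functions were tested on simulated data.

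The genes, lists and words were chosen with earlier results of these data known. Named genes are the 7, list genes with an optimal peak, genes sharing a peak, those nearest to the next optimal peaks and those of the 2 peaks just above and below in rank (some not printed). Others, including the highest list gene without an optimal peak, were chosen after their values were seen. Of 187 symbols on the lists, 18 were not matched. No test was run, since the signals chose the genes. Alternatives were other reaches, overlap, closest start, stricter lists, other word windows and each replicate left out.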

Additional observations from a re-analysis of the deposited data

How the results depend on the processing

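The count of 7 genes with an optimal peak was the same with a reach of 1000 or 500 bp upstream, with region overlap, with the closest transcript start only and with the pooled regions of highest signal. It was 6, without cmtr-1, among the 100 nuclear optimal peaks of highest signal. The genes were chosen for these peaks, so a stable count is no evidence about them. The 256 pooled nuclear regions of highest signal are the nuclear optimal peaks themselves, so that setting could give no other count. With a replicate left out there was no optimal list, so the 256 nuclear regions of highest signal in the other replicate took its place. Leaving out a replicate in this way gave 6 to 7 genes, and 6 again meant without cmtr-1, which was lost without replicate 2. The cap list changed from 1 gene to between 0 and 2: without replicate 2 it lost cmtr-1, and without replicate 1 it gained xrn-2. The spliceosome list changed from 0 to between 0 and 2, gaining prp-21 and usp-39 without replicate 1. In the splicing regulator list 4 genes became 3, without mec-8, at a reach of 1000 bp or without replicate 2. The 4 peaks with the EOR-1 word were 3 without replicate 2, because the replicate 1 summit at tent-5 lay 53 bp away. Over all results, 63 of 76 alternative values lay within 1.5 times the reported count (for ranks, within 1 SD of the replicate ranks) and 13 lay outside. Values within the limit include changes such as 7 to 6 or 4 to 3. Counts and ranks have no direction that could change. For ranks the limit came from the same replicates, so a wide gap between them also widened it. Of the 16 rank values, 5 lay outside. Among those outside were the ranks of cmtr-1 (1584) and of the weaker tent-5 peak (824) without replicate 2. No paired analysis was possible because there was 1 group. Depth was not known, so no error can be given for a single signal, and the cause of these changes was not tested.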
